A study of Mus musculus with 2 samples.

Results

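The killer lectin-like receptors (KLRs) of the immune cells in B16-F10 tumors were described here over 10 genes, Klra4, Klra7, Klra8, Klra9, Klrb1c, Klrc1, Klrd1, Klrk1, Klre1 and Klri2. The genes were taken by symbol from the files, which hold 27 Klr genes in all, and none of them was used to define a cell type. Cells with mitochondrial genes under 10% of their unique molecular identifiers (UMIs) were counted, 6284 cells of the Irg1+/+ library and 5794 of the library labelled Irg1-/-.

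B16-F10, a mouse melanoma line, was injected under the skin of C57BL/6 mice at 200000 cells per mouse, and Cd45+ cells were sorted from the tumors on day 10. Each library was made from 100 mm3 pieces of the tumors of 3 mice of one genotype, pooled before 6000 sorted cells went to capture on the BD Rhapsody system. The groups were Irg1+/+ and Irg1-/- mice, the latter a whole-body line backcrossed to C57BL/6J according to the methods, and the mice were female. The labels give no drug treatment and no Cre allele for either group. With 1 library per genotype, no test between the genotypes was possible, and differences between the pools of mice cannot be told apart from genotype. The 95% intervals given (exact Poisson for UMIs, Clopper-Pearson for shares of cells, conditional binomial for ratios, log odds for odds ratios) cover counting error only, and since UMIs clump in single cells, the Poisson intervals are narrower than the true error.

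Acod1 (Irg1), which encodes the enzyme that makes itaconate, was counted over all kept cells in CPM, its UMIs per 1e6 UMIs. Irg1+/+ cells gave 87.8 CPM (85.0 to 90.7), and cells under the Irg1-/- label gave 108 (104 to 111). The targeted gene was therefore not lower under the knockout label. Which part of the gene was deleted is not given in the sources used here, and a 3' count outside a deleted part checks nothing. Hereafter Irg1-/- stands for the library labelled so. The libraries shared 36 cell barcodes, of which 1 and 4 belonged to the natural killer (NK) cells described below.

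KLRs are C-type lectin-like proteins on the surface of NK cells and of some T cells, and their genes lie side by side in the NK gene complex. The Ly49 receptors, encoded by Klra genes, bind class I major histocompatibility complex (MHC) molecules or their viral mimics and are switched on in some NK cells and not in others, which gives a mosaic of receptor combinations. CD94 (Klrd1) pairs with NKG2A (Klrc1) into an inhibitory receptor for the nonclassical MHC molecule Qa-1, whereas NKG2D (Klrk1) binds stress-induced ligands and activates killing.

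The 4 Ly49 genes are close copies of each other, and the stretches near their starts that align around a word they share are shown to give a view of how alike they are. They are taken from RefSeq for the GRCm38.p6 build and written 5' to 3' on the minus strand that carries the genes. Each has 131 bases, and capitals mark TTTCCTCTTTT, the longest word common to the promoter entries of all 4 genes, where an entry runs from 250 bases before to 50 after a gene's start.
Klra4, chr6:130067280-130067410: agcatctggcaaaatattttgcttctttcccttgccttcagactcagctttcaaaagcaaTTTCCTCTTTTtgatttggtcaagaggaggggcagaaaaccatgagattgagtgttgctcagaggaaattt
Klra8, chr6:130129908-130130038: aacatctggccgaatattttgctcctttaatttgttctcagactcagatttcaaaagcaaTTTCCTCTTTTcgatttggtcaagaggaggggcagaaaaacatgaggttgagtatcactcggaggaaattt
Klra7, chr6:130233341-130233471: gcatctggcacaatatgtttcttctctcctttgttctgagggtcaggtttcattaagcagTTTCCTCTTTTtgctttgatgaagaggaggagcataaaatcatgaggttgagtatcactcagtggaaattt
Klra9, chr6:130193080-130193210: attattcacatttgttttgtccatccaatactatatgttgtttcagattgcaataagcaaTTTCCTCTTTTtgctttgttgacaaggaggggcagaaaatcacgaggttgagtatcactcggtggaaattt
Position by position, the stretches of Klra4 and Klra8 were identical at 86.3% of bases, and the other 5 pairs at 60.3 to 67.9%. The shared word was found, on either strand, in the entries of 46 of 27025 genes (0.170%), among them 8 of the 24 Klr genes with an entry, all 8 of them Klra genes. The word was chosen from the 4 members, so its presence in them is no finding. TGTGGT, the core bound by Runx factors, stood on either strand in the entries of Klrb1c, Klrc1, Klrk1 and Klre1 and in 18.9% of all genes. No entry was matched for Klrd1 and Klri2, and a match describes letters, not a binding site.

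In GENCODE's annotation of GRCm38, Klra4 (chr6:130043731-130067271), Klra8 (chr6:130115226-130129898), Klra9 (chr6:130178675-130193112) and Klra7 (chr6:130218605-130233322) lie in this order on the minus strand. Klrb1c (chr6:128778485-128789215), Klrk1 (chr6:129610323-129623864), Klrc1 (chr6:129666015-129678973) and Klri2 (chr6:129729041-129740484) lie on the same strand, and Klre1 (chr6:129577905-129585827) and Klrd1 (chr6:129591782-129598775) on the plus strand. Near-identical copies limit how far reads can be assigned to one gene. Of the 50-base words in the last 400 bases of the transcript, 63.5% of those of Klrc1 also occur in Klrc2, and 46.4% of those of Klra9 and 15.7% of those of Klra8 occur in other Klra genes or pseudogenes. For Klra7 35.3% occur in the pseudogene Klra13-ps and for Klri2 3.42% occur in Arl4a, while the share was 0 for Klra4, Klrb1c, Klrd1, Klrk1 and Klre1. The levels of Klrc1 and Klra9 are thus the least certain, and Klrb1c overlaps the annotated gene Gm44511.

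Cells were gated on marker genes outside the family. NK-gated cells had at least 1 UMI of Ncr1 (the NK receptor NKp46), no UMI of Cd3d, Cd3e or Cd3g, under 1% of UMIs from a macrophage list and at most 1 B cell UMI. CD8 T-gated cells had at least 2 Cd3 UMIs with Cd8a or Cd8b1 and no Cd4, Foxp3 or Ncr1. The NK gate held 177 Irg1+/+ cells (2.82%, 2.42 to 3.26) and 380 Irg1-/- cells (6.56%, 5.93 to 7.23), at medians of 2857 and 2765 UMIs. The CD8 T gate held 681 (10.8%) and 368 (6.35%) cells at medians of 6277 and 8053 UMIs.

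The NK-gated cells carried the cytotoxic genes of NK cells. Gzma (granzyme A) was found in 87.0% and 90.8% of them, Prf1 (perforin) in 60.5% and 63.7% and the NK factor Eomes in 49.7% and 50%, Irg1+/+ first. Itga1 and Cxcr6, markers of tissue-resident innate lymphoid cells, were found in 9.04% and 8.16% and in 2.26% and 1.32%. Il7r, another gene used as a marker of innate lymphoid cells, was found in more, 26.6% and 18.7%. UMIs of genes of other cell types were present too. Lyz2, a macrophage gene, had a UMI in 94.4% and 92.4% of NK-gated cells at 1424 and 1413 CPM, against 14021 and 12751 CPM in monocyte- and macrophage-gated cells, and the melanocyte gene Pmel had one in 14.1% and 4.21%.

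All 10 genes were found in NK-gated cells of both libraries, between 220 and 843 CPM, and they differed in the share of cells in which they were seen. To compare shares at one depth, each cell was thinned at random to 2000 UMIs, which kept 148 and 302 NK-gated cells and left out 29 and 78 shallower ones. Klrd1 was then detected in 71.6% (63.6 to 78.7) of Irg1+/+ and 72.2% (66.8 to 77.2) of Irg1-/- cells. Klrb1c (NK1.1, the classical NK marker of this strain) was detected in 67.6% and 65.9%, Klrk1 in 64.2% and 61.9% and Klre1, a receptor without a signaling motif of its own, in 62.2% and 63.9%. Klri2, which pairs with Klre1, followed at 49.3% and 45.7%. The other 5 genes, the 4 Ly49 genes and Klrc1, were each found in 28.5 to 42.1% of the cells.

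The share in cells that should lack the genes gives the background. In monocyte- and macrophage-gated cells, 550 and 778 at 2000 UMIs with full-depth medians of 4996 and 5582 UMIs, the 4 Ly49 genes were found in 0.727 to 2.83% of cells, Klrb1c in 1.27% and 1.93%, Klre1 in 0.909% and 1.54%, Klri2 in 0.364% and 1.54% and Klrc1 in 4% and 2.19%. Klrd1 and Klrk1 had more there, 8.18% and 9.38% and 10% and 16.6%. For each of the 10 genes the NK share at the same depth was above these values in both libraries. Without thinning, the shares in NK-gated and in monocyte- and macrophage-gated cells of Irg1+/+ were 80.8% and 19.0% for Klrd1, 72.9% and 23.1% for Klrk1 and 78.5% and 3.16% for Klrb1c, and in Irg1-/- 81.1% and 24.7%, 77.9% and 32.5%, and 73.4% and 7.30%.

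**Figure D1:**
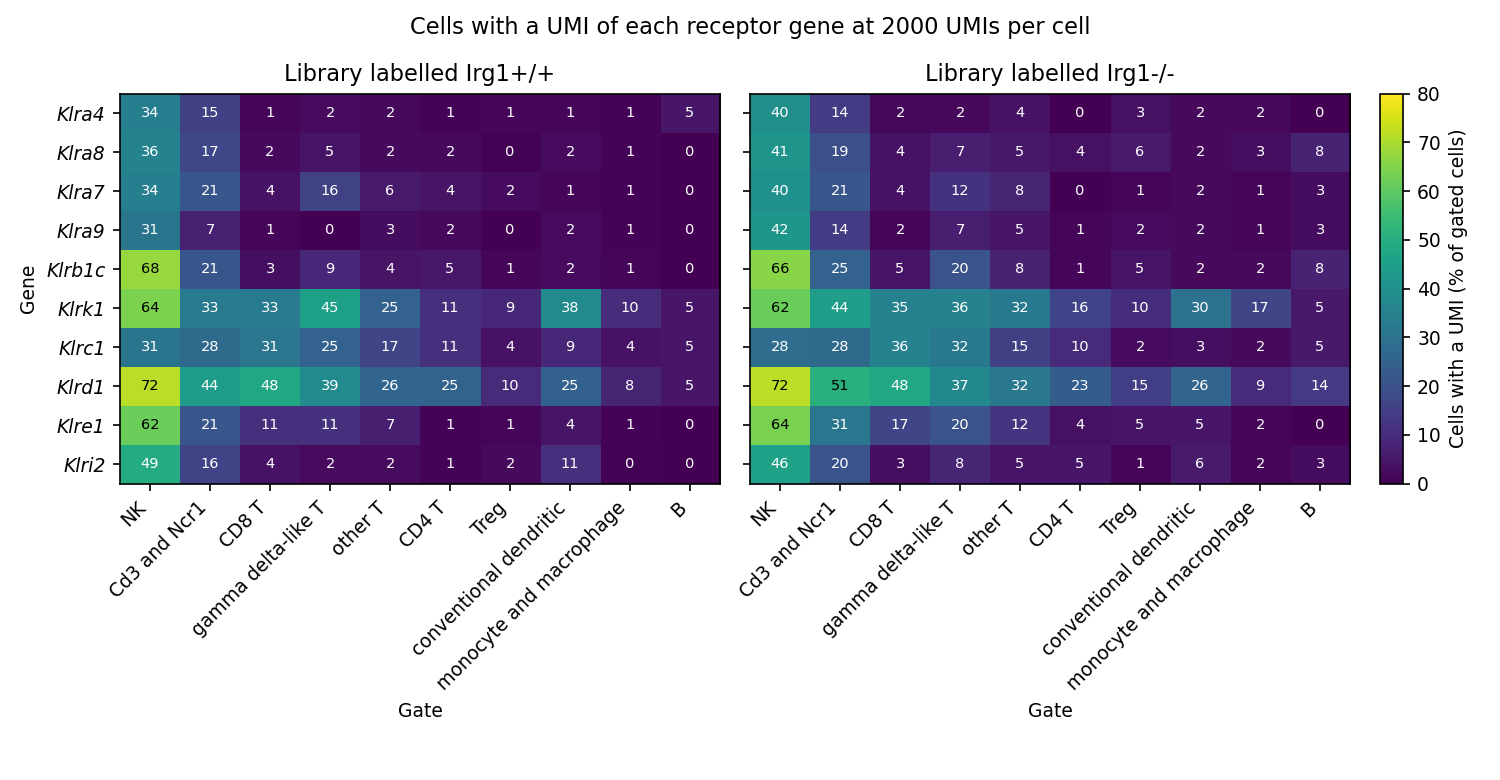
Share of gated cells (color and number, percent) with at least 1 UMI of each receptor gene (rows) in each marker gate (columns), in cells thinned to 2000 UMIs, for the Irg1+/+ library (left) and the library labelled Irg1-/- (right). Klrd1 reaches 71.6% and 72.2% in the NK gate and 47.9% and 47.5% in the CD8 T gate, whereas Klra4 reaches 34.5% and 39.7% in the NK gate and 1.29% and 1.84% in the CD8 T gate.

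The 4 Ly49 genes, each found in a minority of cells, had more UMIs in the cells that had them than Klrb1c or Klrk1. Klra8 gave 7.21 and 6.75 UMIs in each NK-gated cell that had it, Klra4 gave 4.49 and 5.12, Klra7 3.76 and 4.13 and Klra9 3.34 and 4.21, at full depth. Klrd1 gave 3.17 and 3.54 UMIs in each positive cell, Klrb1c 2.96 and 3.08 and Klrk1 2.57 and 2.84. Klrc1, also of a minority, gave the fewest of the 10 genes, 2.49 and 2.39. Because a UMI counts one 3' end, CPM does not scale with gene length, and on this scale Klra8 was the highest of the 10 in both libraries and Klrc1 the lowest. The intervals of Klra8 and Klrd1, the first and the second, overlapped in both libraries.

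The activating Ly49 receptors, Klra4 (Ly49D) and Klra8 (Ly49H, which recognizes a protein of mouse cytomegalovirus), had close levels in the 2 libraries. Klra4 had 512 CPM (457 to 572) in Irg1+/+ NK-gated cells and 588 (548 to 630) in Irg1-/-, a log2 ratio of 0.20 (0.01 to 0.39). Klra8 had 787 CPM (719 to 861) and 843 (795 to 892), a log2 ratio of 0.10 (-0.06 to 0.25). Both differences were small beside the fold of 1.5 used for counts of genes, and with a gate of at least 3 UMIs over Ncr1, Eomes, Txk, Gzma and Prf1 both ratios turned to -0.39.

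Among the inhibitory Ly49 receptors, Klra9 (Ly49I) showed the largest ratio of the 10 genes. It had 337 CPM (293 to 387) in Irg1+/+ and 508 (471 to 546) in Irg1-/- NK-gated cells, a log2 ratio of 0.59 (0.36 to 0.82) that just passed the fold of 1.5, and it was found in 31.1% (23.7 to 39.2) and 42.1% (36.4 to 47.8) of the thinned cells. Klra7 (Ly49G) had 442 and 510 CPM, a log2 ratio of 0.21 (0.00 to 0.42). Since Klra9 shares much of its 3' end with other Klra genes, reads of those copies may be among its counts, and their part was not tested.

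Klrc1 (NKG2A) went the other way. It had 288 CPM (248 to 334) in Irg1+/+ and 220 (196 to 246) in Irg1-/- NK-gated cells, a log2 ratio of -0.39 (-0.66 to -0.12). Klrc2, the activating NKG2C with which it shares most of its 3' end, had 184 and 245 CPM, a log2 ratio of 0.41 (0.10 to 0.73). Their partner Klrd1 (CD94) had 738 and 782 CPM, a log2 ratio of 0.08 (-0.08 to 0.24). Klrk1 (NKG2D) had 539 and 604 CPM, a log2 ratio of 0.16 (-0.02 to 0.35), Klrb1c had 671 and 617, -0.12 (-0.29 to 0.05), and Klre1 had 618 and 566, -0.13 (-0.30 to 0.06). Klri2 had 481 and 416 CPM, -0.21 (-0.41 to 0.00).

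Of the 10 genes, 1 (Klra9) was at least 1.5-fold higher and 0 were at least 1.5-fold lower in Irg1-/- NK-gated cells. Over the 8232 genes with at least 20 UMIs, 8.69% were at least 1.5-fold higher and 9.85% lower, so that the count among the receptors was near that of all genes. With the NK gate on these 5 genes (Ncr1, Eomes, Txk, Gzma and Prf1), the ratio of Klra9 was 0.07, 0 genes were higher and 3 were lower. The median log2 ratio was 0.09 over the 10 genes and -0.05 over all genes.

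**Figure D2:**
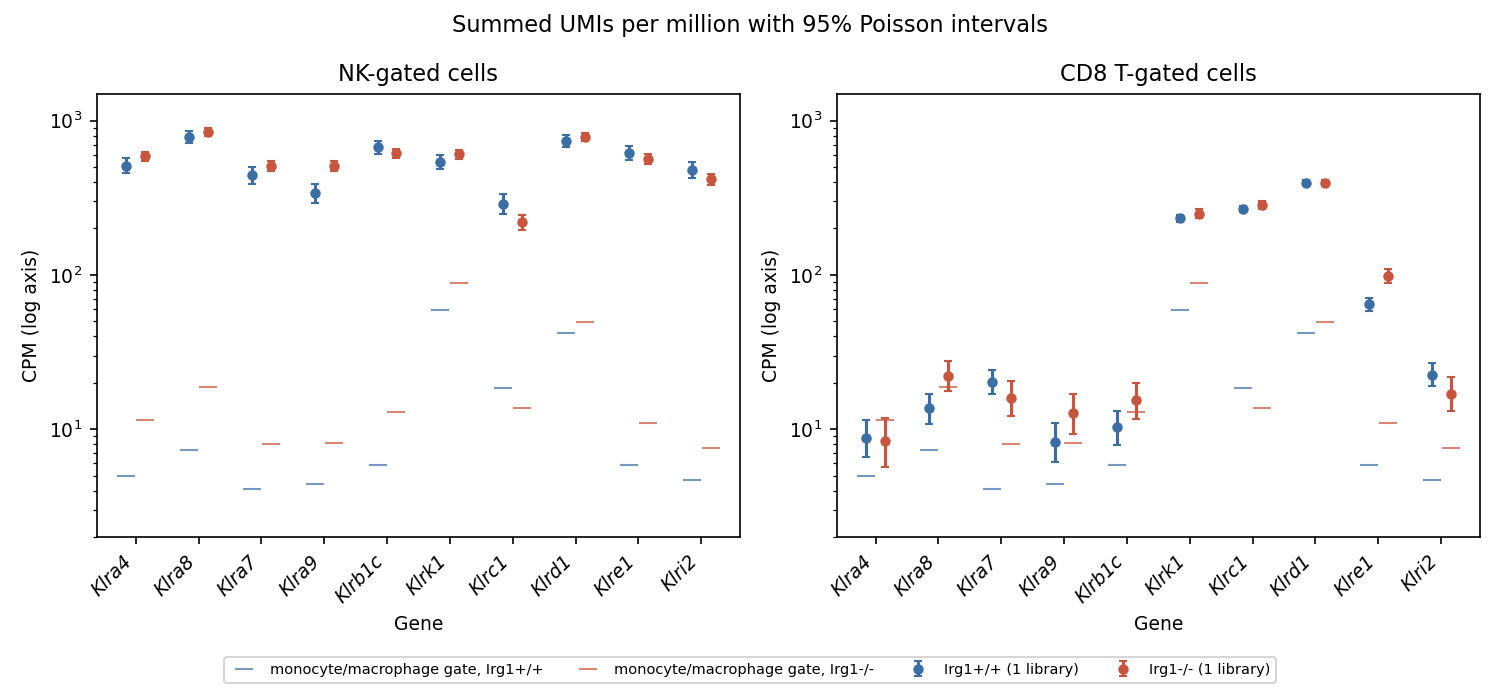
CPM on a log axis of each receptor gene in NK-gated (left) and CD8 T-gated (right) cells, points with 95% Poisson intervals, blue Irg1+/+ and red the library labelled Irg1-/-, 1 library each; dashes mark the level in monocyte- and macrophage-gated cells. In NK-gated cells the 10 genes lie between 220 and 843 CPM, and in CD8 T-gated cells Klrc1, Klrd1 and Klrk1 lie between 234 and 397 CPM while the Ly49 genes lie between 8.31 and 22.2 CPM.

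Over all kept cells the ratios were larger, and the share of NK-gated cells moved with them. Klra9 had 19.6 CPM in Irg1+/+ and 50.8 in Irg1-/-, a log2 ratio of 1.38, Klra4 28.0 and 64.2 CPM, 1.20, and Klra8 40.8 and 93.5 CPM, 1.19. In all, 7 of the 10 genes were at least 1.5-fold higher and 0 lower, against 5.58% of 14204 genes higher and 9.82% lower, and the NK gate held 2.82% and 6.56% of cells. In such sums more cells of a type and more RNA per cell cannot be told apart. Klrc1, of whose UMIs the NK gate held 4.58% and 10.5%, had 91.8 and 82.7 CPM over all cells, a log2 ratio of -0.15 (-0.22 to -0.08).

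Of the other 17 Klr genes, 11 had at least 20 UMIs in NK-gated cells, of which 0 were at least 1.5-fold higher and 2 lower in Irg1-/-, beside 8.69% and 9.85% of all genes. Their median log2 ratio was -0.24, against -0.05 over all genes, and the interval lay below 0 for 4 and above 0 for 1, Klrc2. Klra1 (Ly49A), an inhibitory receptor, had 161 and 107 CPM, -0.60 (-0.97 to -0.21), and Klra6, with only 11 and 16 UMIs, had 17.9 and 11.5 CPM, -0.66 (-1.84 to 0.61). Klrb1b, an inhibitory NKR-P1 receptor, had 764 and 622 CPM, -0.30 (-0.46 to -0.13). Klrg1, a marker of mature NK and effector T cells, had 147 and 135 CPM in NK-gated cells and more, 210 and 279 CPM, in Treg-gated cells.

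Klra2 (Ly49B) was more abundant in the monocyte and macrophage gate than in the NK gate. It had 358 CPM (338 to 378) and 346 (330 to 362) there and was found in 47.5% and 47.3% of thinned cells, against 39.1 and 38.8 CPM and 3.38% and 7.62% of cells in the NK gate. These levels were close in both libraries.

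The adaptors through which activating KLRs signal were present. Tyrobp (DAP12), which couples to Ly49D and Ly49H, had 1530 and 1671 CPM in NK-gated cells and Fcer1g 2272 and 2747, yet monocyte- and macrophage-gated cells had more of both, 1995 and 1852 CPM and 3863 and 4077 CPM. Hcst (DAP10), the adaptor of NKG2D, had 160 and 183 CPM, against 31.1 and 34.9 in the monocyte and macrophage gate. None of the 4 adaptors, with Cd247, and none of 10 signaling enzymes passed the 1.5-fold limit, beside 8.69% of all genes higher and 9.85% lower, where the widest ratios were those of Syk, 0.51 (0.13 to 0.91), and Zap70, -0.49 (-0.97 to 0.01). Of 13 ligand genes, 8 had enough UMIs in NK-gated cells and none of the 8 passed the limit, beside the same shares of all genes. H2-T23, which encodes Qa-1, had 218 and 247 CPM, and the class I genes H2-K1 and H2-D1 had 4744 and 4432 CPM and 4897 and 4924 CPM.

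The number of Ly49 genes per NK cell spanned the whole range. At 2000 UMIs, 26.4% of Irg1+/+ NK-gated cells had none of Klra4, Klra7, Klra8 and Klra9, 29.1% had 1, 29.7% had 2, 12.2% had 3 and 2.70% had all 4. The Irg1-/- shares were 25.8%, 21.9%, 23.5%, 20.9% and 7.95%. Mean numbers were 1.36 and 1.63, and 1.53 and 1.77 without thinning. The intervals of the 2 libraries overlapped at each number. Over all 10 genes, NK-gated cells had a mean of 4.82 and 5.01 genes and CD8 T-gated cells 1.38 and 1.54.

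**Figure D3:**
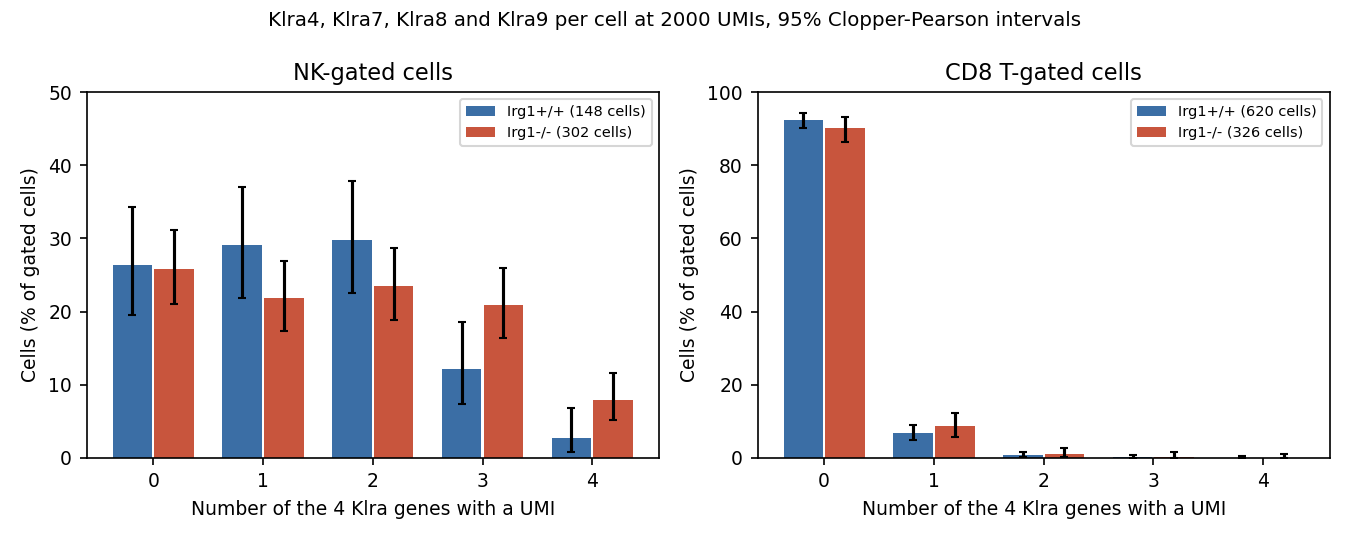
Share of cells (vertical axis, percent) by the number of the genes Klra4, Klra7, Klra8 and Klra9 with a UMI (horizontal axis) in NK-gated (left) and CD8 T-gated (right) cells thinned to 2000 UMIs, bars with 95% Clopper-Pearson intervals, blue Irg1+/+ and red the library labelled Irg1-/-. In the NK gate 26.4% and 25.8% of cells have none of the 4 genes, and in the CD8 T gate 92.4% and 90.2%.

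Pairs of genes were not detected independently of each other. The odds ratio of finding both genes in a thinned NK-gated cell, with 0.5 added to each count, had an interval above 1 in both libraries for 11 of the 45 pairs and below 1 in both for 1 pair. For pairs of genes, cells and not mice are the units, so these intervals describe each library and test no genotype. For 0 of the 45 pairs did the intervals of the libraries lie apart. As a reference, the median odds ratio of 15 pairs of other NK genes was 2.88 and 2.24 (Eomes, Gzma, Gzmb, Prf1, Itga2 and Itgam), against which values above 1 should be read. Counted in each library apart, 9 and 10 of these 15 pairs had an interval above 1, against 12 and 26 of the 45 receptor pairs. The 39 receptor pairs other than the 6 Ly49 pairs had medians of 1.62 and 1.72, below those of the reference.

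The pair of activating Ly49 genes had the highest odds ratio of the 45 in both libraries. Of the 53 Irg1+/+ cells with Klra8, 56.6% also had Klra4, against 22.1% of the 95 without it, an odds ratio of 4.50 (2.19 to 9.25). In Irg1-/-, 62.4% of 125 cells with Klra8 and 23.7% of 177 without it had Klra4, an odds ratio of 5.27 (3.20 to 8.67). The stretches of Klra4 and Klra8 were the most alike above, and Klra4 shares no 50-base word of its 3' end with another gene. Whether either bears on the odds ratio was not tested. The pair stayed between 3.50 and 6.94 under each alternative tried.

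For the other Ly49 pairs the intervals of the libraries overlapped. Klra7 and Klra8 had odds ratios of 1.25 (0.63 to 2.51) and 3.31 (2.05 to 5.35), Klra4 and Klra7 1.37 and 2.97, and Klra8 and Klra9 1.41 and 3.17. Klra8 and Klra9 share 50-base words of their 3' ends with each other, and the part of reads given to the wrong copy in this pair was not tested. Klra4 and Klra9 had 0.78 (0.37 to 1.63) and 1.53 (0.96 to 2.43), and Klra7 and Klra9 1.54 and 1.41. The median of the 6 Ly49 pairs was 1.39 in Irg1+/+ and 3.07 in Irg1-/-, and the latter was 1.82 in cells with at least 2 Ncr1 UMIs. Without thinning, the pair Klra7 and Klra8 had 1.59 and 1.92, so that its gap between libraries was narrower at full depth.

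Klrc1 and Klra4 were the 1 pair whose odds ratio had an interval below 1 in both libraries. Klra4 was found in 15.2% of 46 Irg1+/+ cells with Klrc1 and in 43.1% of 102 without it, an odds ratio of 0.25 (0.10 to 0.60). In Irg1-/- it was found in 17.4% of 86 and in 48.6% of 216 cells, an odds ratio of 0.23 (0.12 to 0.42). Klra8 and Klrc1 had 0.62 (0.30 to 1.31) and 0.38 (0.22 to 0.66), Klra9 and Klrc1 0.52 and 0.99 and Klra7 and Klrc1 0.90 and 0.69. Any of the 4 Ly49 genes was found in 54.3% of Irg1+/+ cells with Klrc1 and 82.4% of those without, and in 66.3% and 77.3% in Irg1-/-. With Klrd1, its partner in the receptor, Klrc1 had odds ratios of 1.36 (0.62 to 2.98) and 1.64 (0.91 to 2.95), whose intervals hold 1.

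Among Klrd1, Klrb1c, Klrk1, Klre1 and Klri2, the more frequent receptors, 8 of 10 pairs had intervals above 1 in both libraries. Klrd1 and Klre1, neighbors on the plus strand, had odds ratios of 3.49 (1.67 to 7.30) and 3.17 (1.89 to 5.33), Klrb1c and Klre1 2.72 (1.35 to 5.51) and 3.71 (2.25 to 6.12), and the partners Klre1 and Klri2 2.72 (1.37 to 5.40) and 2.26 (1.39 to 3.67). The exceptions were Klrk1 and Klri2, 0.91 (0.46 to 1.76) and 1.29 (0.81 to 2.06), and Klrb1c and Klrk1, 2.76 (1.36 to 5.61) and 1.61 (0.99 to 2.62). In cells with at least 2 Ncr1 UMIs, Klrb1c and Klrd1 had 0.781 in Irg1+/+, and in Irg1-/- Klre1 and Klri2 had 0.892 and Klrk1 and Klre1 0.971.

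**Figure D4:**
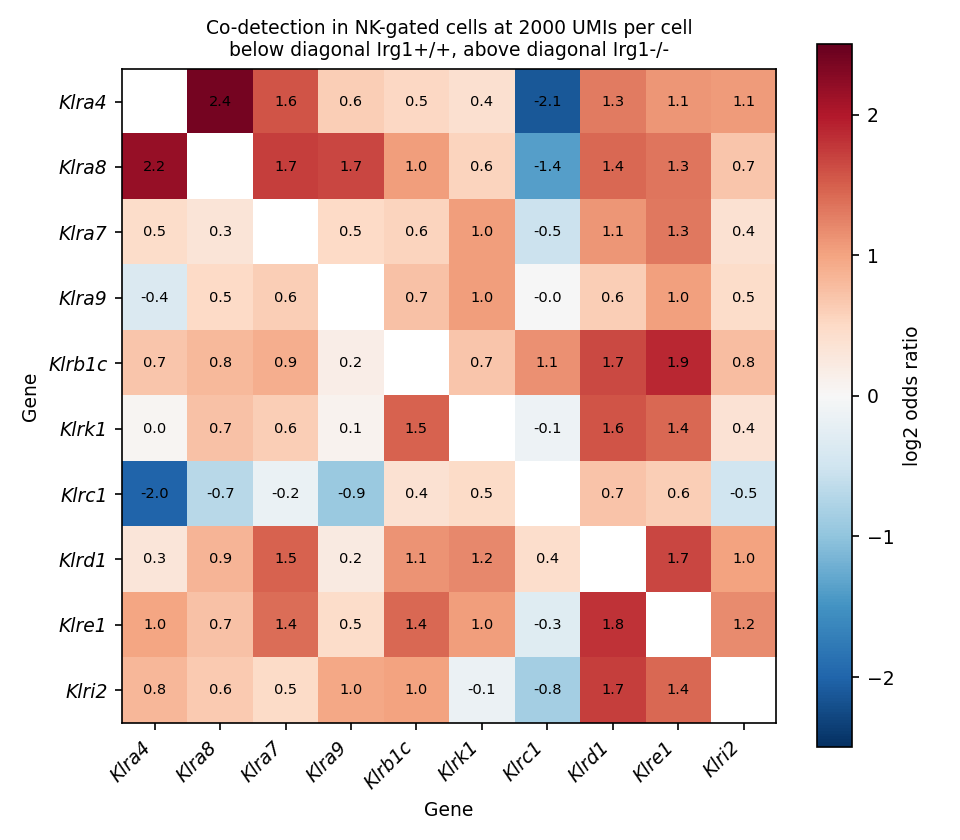
Log2 odds ratio (color and number) of detecting both genes of a pair in NK-gated cells thinned to 2000 UMIs, 148 Irg1+/+ cells below the diagonal and 302 cells of the library labelled Irg1-/- above it; red is above 0 and blue below 0. Klra4 with Klra8 is the deepest red on both sides (odds ratios 4.50 and 5.27) and Klra4 with Klrc1 the deepest blue (0.25 and 0.23).

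NK-gated cells were then divided by whether they had a UMI of each of 14 NK genes. Of 140 pairs of receptor and divider, the interval of the odds ratio lay above 1 in both libraries for 19 and below 1 in both for 0. Gzma divided most. Any Ly49 gene was found in 86.2% of 123 Irg1+/+ cells with Gzma and 12.0% of 25 without it, and in 85.9% of 256 and 8.70% of 46 cells in Irg1-/-. Klrb1c was found in 75.6% and 28.0%, and in 73.0% and 26.1%. Gzma was also found outside the NK gate, with a UMI in 33.4% and 56.4% of monocyte- and macrophage-gated cells at full depth (74.8 and 179 CPM), against 6097 and 7708 CPM in the NK gate. Whether the cells without Gzma were NK cells was not tested beyond these values.

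Of the 19 pairs, 16 were with Gzma, Gzmb or Prf1, and the other 3 were Klra4 and Klre1 with Eomes and Klra4 with Itga2. Itga1, Cxcr6, Itgam, S1pr5, Cd27, Tcf7, Ifng, Xcl1 and Mki67 gave no such pair. Any Ly49 gene was found in 85.2% of Irg1+/+ NK-gated cells with Eomes and 67.0% without, and in 88.6% and 62.9% in Irg1-/-. With Itga2 (CD49b, of circulating NK cells) the shares were 90.0% against 67.6% and 86.7% against 68.1%. With Gzmb, Klre1 was found in 74.7% against 36.7% and in 72.9% against 39.5%, and Klrd1 in 81.8% against 51.0% and in 80.5% against 49.4%. For Klrc1 no divider had an interval above 1 in both libraries.

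In CD8 T-gated cells Klrd1, Klrc1 and Klrk1, which T cells are known to share with NK cells, were the abundant receptors. Klrd1 had 397 CPM (381 to 413) in Irg1+/+ and 394 (374 to 415) in Irg1-/-, Klrc1 267 (254 to 281) and 283 (266 to 300) and Klrk1 234 (222 to 246) and 250 (234 to 267). At 2000 UMIs, in 620 and 326 cells, Klrd1 was found in 47.9% and 47.5%, Klrk1 in 32.6% and 35.3% and Klrc1 in 31.3% (27.7 to 35.1) and 35.6% (30.4 to 41.0). Klrc1 was thus about as frequent as in NK-gated cells. The CD8 T gate held 41.6% and 35.8% of all Klrc1 UMIs of the libraries and the NK gate 4.58% and 10.5%.

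The remaining genes were rare in CD8 T-gated cells. Klre1 was found in 11% (8.62 to 13.7) and 16.9% (13.0 to 21.4) of thinned cells at 64.5 and 98.6 CPM, a log2 ratio of 0.61 (0.40 to 0.82). The Ly49 genes, Klrb1c and Klri2 had 8.31 to 22.6 CPM and were found in 1.29 to 4.6% of thinned cells. At full depth the 4 Ly49 genes were found in 3.67 to 7.49% of Irg1+/+ and in 6.52 to 14.7% of Irg1-/- cells, which were deeper.

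Between the libraries, 3 of the 10 genes were at least 1.5-fold higher (Klra8, Klra9 and Klre1) and 0 were at least 1.5-fold lower in Irg1-/- CD8 T-gated cells, against 4.27% of 11148 genes higher and 6.77% lower. By the mean of each cell's CPM, 1 gene (Klra9) was higher. Klra8 had 13.6 and 22.2 CPM, a log2 ratio of 0.70 (0.24 to 1.16), and Klra9 8.31 and 12.7 CPM, 0.61 (0.01 to 1.22). Over 6 alternatives the ratio ranged from 0.29 to 0.96 for Klra8, from 0.05 to 1.48 for Klra9 and from 0.33 to 0.76 for Klre1. Both genes also had more CPM in Irg1-/- monocyte- and macrophage-gated cells, 7.34 and 18.8 CPM for Klra8 and 4.40 and 8.17 for Klra9. The difference, Irg1-/- minus Irg1+/+, was 8.52 CPM in CD8 T-gated and 11.5 in monocyte- and macrophage-gated cells for Klra8, and 4.39 and 3.76 CPM for Klra9. The other Ly49 genes did not follow these cells, with -0.43 against 6.4 CPM for Klra4 and -4.34 against 3.87 CPM for Klra7. For Klre1 it was 34.1 against 5.14 CPM. The part of RNA from outside the cell in these differences was not tested. The ratios of Klrc1, 0.08 (-0.03 to 0.19), Klrd1, -0.01 (-0.10 to 0.09), and Klrk1, 0.10 (-0.03 to 0.22), lay within counting error of 0.

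Over all T cell gates together (CD8, CD4, regulatory, gamma delta-like and other T cells), 5 of the 10 genes were at least 1.5-fold higher in Irg1-/- (Klra4, Klra8, Klra9, Klrb1c and Klre1) and 0 lower, beside 3.56% of 12411 genes higher and 8.81% lower. The median log2 ratio of the 10 was 0.59, against -0.05 over all genes, and 9 of 10 intervals lay above 0. The call of Klra4, 0.80 (0.43 to 1.16), rested on the Treg gate, where it had 3 and 31 UMIs. Without that gate it was 0.39 (-0.01 to 0.78), and 3 genes were higher (Klra8, Klrb1c and Klre1), with Klra9 at 0.58 just under the limit. Klre1 had 46.3 and 82.1 CPM, 0.83 (0.67 to 0.99), Klrk1 178 and 226 CPM, 0.35 (0.26 to 0.43), and Klrd1 265 and 312 CPM, 0.23 (0.16 to 0.31). Without the other T gate Klrd1 fell to 0.08 (-0.01 to 0.17). There Klri2 fell from 0.55 to 0.07 (-0.30 to 0.44) and Klrc1 from 0.16 to 0.10 (-0.01 to 0.21), so that the intervals of Klrd1, Klri2 and Klrc1 then held 0. Without the CD8 T gate Klri2 was 1.33 (0.94 to 1.72). Klrb1c had a log2 ratio of 0.88 (0.59 to 1.17), and it had 5.87 and 12.9 CPM in monocyte- and macrophage-gated cells. The makeup of the T cells differed, with 224 and 94 Treg-gated cells beside 681 and 368 CD8 T-gated cells, and its part in these ratios was not tested.

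Klrc1, Klrd1, Klrk1 and Klre1 were detected together in CD8 T-gated cells more often than independence gives. Klrc1 and Klrd1 had odds ratios of 2.27 (1.61 to 3.22) and 1.89 (1.19 to 2.98), Klrc1 and Klrk1 2.20 (1.54 to 3.13) and 2.12 (1.33 to 3.39), and Klrc1 and Klre1 2.45 (1.47 to 4.06) and 3.36 (1.86 to 6.08). Klrd1 and Klre1 had 2.88 and 2.89, Klrk1 and Klre1 2.98 and 2.85, and Klrd1 and Klrk1 1.66 and 1.94. All 6 pairs had intervals above 1 in both libraries, beside a median of 1.34 and 0.955 for 15 pairs of reference genes.

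Klrc1 was found more often in CD8 T-gated cells with effector and checkpoint genes. CD8 T-gated cells were divided by 10 genes, and of 100 pairs of receptor and divider 11 had intervals above 1 in both libraries and 0 below 1 in both, 7 of the 11 being pairs of Klrc1. It was found in 37.1% of Irg1+/+ cells with Gzmb and 22.1% without, and in 46.9% and 16.0% in Irg1-/-, odds ratios of 2.07 (1.43 to 2.99) and 4.55 (2.61 to 7.93). For Pdcd1 (PD-1) the shares were 43.3% against 25.5% and 51.7% against 26.7%, and for Lag3, another checkpoint receptor, 53.6% against 29.1% and 61.8% against 32.5%. Havcr2 (TIM-3), Ifng, Prf1 and the cycling gene Mki67 divided Klrc1 in the same direction in both libraries. Klrd1 was found in 54.5% with Gzmb against 37.5% without in Irg1+/+ and in 52.7% against 38.7% in Irg1-/-, and with Pdcd1 in 58.7% against 42.7% and 62.1% against 39.5%.

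**Figure D5:**
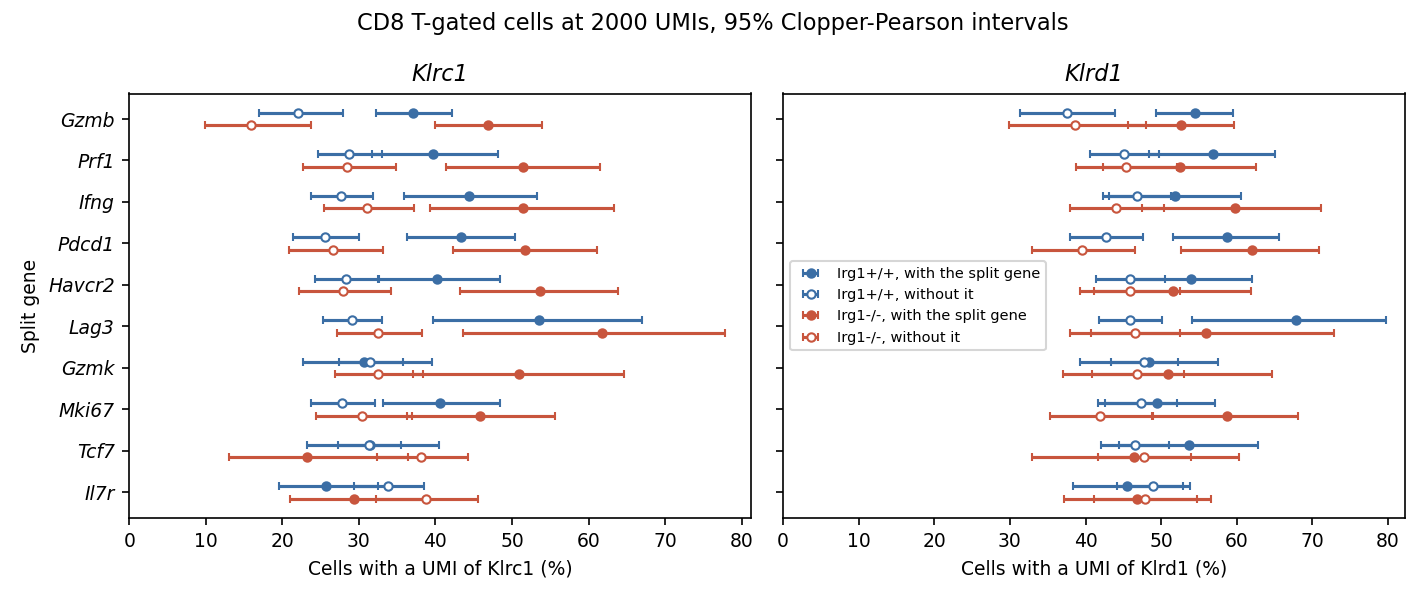
Share of CD8 T-gated cells (horizontal axis, percent) with a UMI of Klrc1 (left) or Klrd1 (right) among cells with (filled) and without (open) a UMI of each dividing gene (vertical axis), at 2000 UMIs with 95% Clopper-Pearson intervals, blue Irg1+/+ and red the library labelled Irg1-/-. Klrc1 lies at 46.9% with and 16.0% without Gzmb in the Irg1-/- library, and Klrd1 at 52.7% with and 38.7% without it.

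In the other T cell gates Klrd1 or Klrk1 was again among the most frequent. In CD4 T-gated cells Klrd1 was found in 25.4% and 23.5% of thinned cells and Klrc1 in 11% and 9.88%. In Foxp3+ regulatory T cells Klrd1 was found in 9.62% and 14.9%, against 8.18% and 9.38% of monocyte- and macrophage-gated cells. By CPM it had 85.2 and 143 in the Treg gate, against 42.0 and 49.2 in the monocyte and macrophage gate. In gamma delta-like T cells, 44 and 59 thinned cells, Klrk1 was found in 45.5% and 35.6% and Klrb1c in 9.09% and 20.3%. Cells with both Cd3 and Ncr1 UMIs, 100 and 114 at medians of 8520 and 9006.5 UMIs, had Klrd1 in 43.9% and 50.9% and Klrb1c in 21.4% and 25%. They held more UMIs per cell than the NK or CD8 T gates, and whether they were single cells was not tested.

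Conventional dendritic cells, gated by Flt3 without Csf1r, Cd3, Ncr1 or Siglech, also had Klrk1 and Klrd1. Klrk1 had 245 CPM (205 to 290) and 220 (185 to 259) in 137 and 140 cells and was found in 38.2% (28.1 to 49.1) and 29.8% (21.2 to 39.6) of 89 and 104 thinned cells. Klrd1 had 170 and 175 CPM and was found in 24.7% and 26.0%. Klrb1c was found in 2.25% and 1.92% of them, and the ratio of Klrb1c to Klrk1 UMIs was 0.0889 and 0.0915 here against 1.24 and 1.02 in NK-gated, 0.0441 and 0.0616 in CD8 T-gated and 0.0990 and 0.146 in monocyte- and macrophage-gated cells, on 12 and 13 Klrb1c UMIs in the dendritic gate. The ratio of Klrc1 to Klrk1 UMIs was 0.133 and 0.0775 here against 1.14 and 1.13 in CD8 T-gated and 0.312 and 0.154 in monocyte- and macrophage-gated cells. Zbtb46, a factor of dendritic cells, was found at full depth in 39.4% and 35.7% of the gate. Klri2 had 49.0 and 44.9 CPM in the dendritic gate. That was above the 4.70 and 7.60 of monocyte- and macrophage-gated and the 22.6 and 17.0 of CD8 T-gated cells, and below the 481 and 416 of NK-gated cells.

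Much of the Ly49 RNA lay outside every gate. Cells in no gate, 3470 and 3315, held 43.9% and 47.5% of the UMIs of the 4 Ly49 genes, and the NK gate held 22.8 to 39.4% of the UMIs of each. Among the ungated cells with at least 3 Ly49 UMIs, 161 and 337, Gzma was found in 97.5% and 99.1%, 73.9% and 71.8% had no Ncr1 UMI, 41.0% and 36.5% had exactly 1 Cd3 UMI and 8.70% and 11.9% were at the macrophage limit. The NK gate therefore left out many cells with Ly49 RNA, and its levels describe cells in which Ncr1 was captured.

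The genes outside the family whose levels followed each receptor over 20 profiles (10 gates with at least 50 cells in each library, ungated cells being one) were ranked by likeness. By Pearson's r of log2(CPM + 10) among 10688 genes, Gzma was closest to Klra8 (0.97), Klra9 (0.95) and Klra4 (0.94), and Spry2, a regulator of receptor tyrosine kinase signaling, to Klra7 (0.96) and Klrb1c (0.94). Cd160, another NK and T cell receptor, was closest to Klrc1 (0.98), the protease gene Ctsw to Klrd1 (0.93), Eomes to Klre1 (0.97), Kcnip3 to Klri2 (0.93) and Samd3 to Klrk1 (0.85). The profiles share libraries and differ in depth, so these values describe the gates only.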

How the data were processed

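Single cells were captured with BD Rhapsody. The authors trimmed reads with fastp, listed barcodes with UMI-tools and aligned them to Ensembl release 100 (mouse) using STAR. Per the labels, the processing notes also name CASAVA 1.8, Seurat and GRCm38. The deposited values are raw UMI counts for each gene in each cell, 43617546 UMIs in 6408 Irg1+/+ cells and 36432067 in 5896 cells of the library labelled Irg1-/-. Cells with over 200 genes and mitochondrial UMIs under 10% were kept (124 and 102 removed) and mitochondrial genes then dropped, which left 42105693 and 35307041 UMIs at medians of 4528 and 4594.5 per cell. Doublets were kept.

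Counts were summed per gate and library as CPM with 0.5 UMIs added for log2 ratios (Python 3.11.15, numpy 2.4.6, scipy 1.17.1, pandas 2.3.3, matplotlib 3.10.9; TMM by edgeR 4.0.16 in R 4.3.3). Shares and odds ratios used 1 fixed random thinning to 2000 UMIs. The steps were tested on simulated counts. The members, lists and rules were chosen with earlier results of these data known. Named genes were the 10 members, listed partner genes with at least 20 UMIs in the gate, the dividing and marker genes of the gates and the genes most alike over gates. Alternatives to the filter, gates, scaling, depth and pseudocount are given in the closing section. Lists of other NK receptors, NK maturation genes and effectors are given there as well. One dividing gene of the CD8 T cells is not reported here.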

Additional observations from a re-analysis of the deposited data

Results flagged for a closer look

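For 6 receptors the log2 ratio of the library labelled Irg1-/- over Irg1+/+ had opposite signs in NK-gated and CD8 T-gated cells, and the difference was not tested. It was 0.26 for Klra4 (0.20 in NK-gated and -0.06 in CD8 T-gated cells), 0.55 for Klra7 (0.21 and -0.34), -0.70 for Klrb1c (-0.12 and 0.58), -0.47 for Klrc1 (-0.39 and 0.08), 0.089 for Klrd1 (0.08 and -0.01) and -0.74 for Klre1 (-0.13 and 0.61). For Klra4, Klrb1c and Klra7 the CD8 T values rest on 31 to 122 UMIs per library. For each of the 6 the counting interval held 0 in at least one of the gates. With the NK gate of 3 UMIs over 5 genes the NK ratios of Klra4, Klra7 and Klrd1 were -0.39, -0.21 and -0.30, so that the signs were no longer opposite. Over the alternatives the CD8 T ratio ranged from -0.11 to 0.04 for Klrd1, from -0.03 to 0.12 for Klrc1 and from -0.69 to 0.03 for Klra7, and the NK ratio of Klrb1c from -0.53 to 0.04.

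Klrk1 and Klrd1 had UMIs in gates outside the NK and T cells compared. Klrk1 had 245 CPM in Irg1+/+ and 220 CPM in Irg1-/- conventional dendritic-gated cells and 59.3 and 88.7 CPM in monocyte- and macrophage-gated cells. Klrd1 had 170 and 175 CPM in conventional dendritic-gated cells.

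Cells in no gate held 43.9% of the UMIs of the 4 Klra genes in Irg1+/+ and 47.5% in Irg1-/-.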

How the results depend on the processing

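No paired analysis was possible because each genotype has 1 library. The NK gate moved the CPM ratios and odds ratios in NK-gated cells most. With at least 2 Ncr1 UMIs, with 3 UMIs over Ncr1, Eomes, Txk, Gzma and Prf1, or with 1 Cd3 UMI allowed, it held 1.19%, 4.77% and 3.98% of Irg1+/+ and 2.87%, 12.4% and 8.51% of Irg1-/- cells. The count of receptors at least 1.5-fold higher in NK-gated cells fell from 1 to 0 with 3 UMIs over these 5 genes, with 1 Cd3 UMI allowed and in cells with a Gzma UMI (the last added after seeing the data, as was leaving out shared barcodes), and the count lower went from 0 to 3 and 1 under the first 2. With the 5-gene gate the ratios of all 10 receptors moved beyond their counting interval, to -0.39 for Klra4, 0.07 for Klra9, -0.84 for Klrc1 and -0.74 for Klri2. Klra4, Klra7, Klra8, Klrd1 and Klrk1 changed sign there, and the cause was not tested. In CD8 T-gated cells the count higher fell from 3 to 1 with the mean of each cell's CPM, and the count lower rose from 0 to 1 with 2 Cd8 UMIs. Over all T cells the count higher fell from 5 to 3 without the Treg gate and was 4 to 6 without each other T gate (added after seeing the data), where 40 of 50 ratios lay within their counting interval. With no minimum of UMIs, 14.5% and 19.0% of genes passed the fold upward and downward in NK-gated cells.

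With 2 Ncr1 UMIs the median odds ratio of the 6 Klra pairs in Irg1-/- was 1.82, and 6 odds ratios crossed 1, to 0.920 for Klra7 with Klrd1 and 0.781 for Klrb1c with Klrd1 in Irg1+/+, and in Irg1-/- to 0.802 for Klra4 with Klrd1, 0.996 for Klra7 with Klrk1, 0.971 for Klrk1 with Klre1 and 0.892 for Klre1 with Klri2. Klra4 with Klrc1 stayed between 0.169 and 0.321. In all, 95 of 110 ratios in NK-gated and 55 of 60 in CD8 T-gated cells and 243 of 270 odds ratios and 154 of 200 unthinned shares of NK-gated cells lay within the counting interval of the value reported. TMM factors shifted all NK ratios by 0.06 and CD8 T ratios by 0.03. Of the 20 shares, 19 moved with thinning to 1000 UMIs, 12 with thinning to 2000 and 10 with 2 Ncr1 UMIs. The sizes of the gates limit the precision.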

Other observations

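Genes of NK maturation and function were measured in the same NK-gated cells. Tcf7, which encodes a factor of less mature NK cells, had 269 CPM in Irg1+/+ and 127 in the library labelled Irg1-/-, a log2 ratio of -1.08 (-1.40 to -0.77), Cd27, of immature NK cells, 150 and 88.3, -0.77 (-1.17 to -0.36), and Il7r 266 and 171, -0.64 (-0.93 to -0.34). Ly6c2 had 566 and 900 CPM, 0.67 (0.50 to 0.85), and was also higher outside NK cells, at 0.70 (0.64 to 0.75) in CD8 T-gated and 0.94 (0.89 to 0.98) in monocyte- and macrophage-gated cells. Tcf7 was also lower in CD8 T-gated cells, -0.59 (-0.80 to -0.38). In ungated cells, which include many with Ly49 RNA, Il7r had -0.58 (-0.64 to -0.53) and Cd27 -0.51 (-0.70 to -0.31). In CD8 T-gated cells Il7r had -0.05 (-0.16 to 0.06) and Cd27 -0.14 (-0.31 to 0.03). Over all T cell gates Tcf7 had -0.18 (-0.31 to -0.04), Il7r -0.09 (-0.15 to -0.03) and Cd27 -0.32 (-0.44 to -0.21). Il7r went both ways between T gates, with 0.39 (0.23 to 0.55) in CD4 T-gated and -0.27 (-0.38 to -0.16) in other T-gated cells. Whether the differences of Tcf7, Il7r and Cd27 are particular to NK cells was not tested. Of 15 maturation genes with enough UMIs, 1 was at least 1.5-fold higher and 3 lower, beside 8.69% higher and 9.85% lower of 8232 genes. Itgam (CD11b), of mature NK cells, had 272 and 352 CPM, 0.37 (0.12 to 0.64). Over the 15 genes the interval lay above 0 for 2 and below 0 for 4, with a median log2 ratio of 0.08. Il2rb was lower, -0.32 (-0.41 to -0.23). The intervals of Zeb2, 0.24 (-0.11 to 0.62), and S1pr5, 0.08 (-0.85 to 1.17), held 0, as did that of Klrg1 outside this list, -0.12 (-0.49 to 0.26). Whether the NK cells of the libraries differed in maturity was not tested.

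Among 10 effector genes with enough UMIs, 0 were at least 1.5-fold higher and 1 lower, which is near the 8.69% and 9.85% of all genes. The gene was Gzmc at 774 and 358 CPM, -1.11 (-1.30 to -0.93), which was found in 15.8% and 13.4% of the cells and was also lower in CD8 T-gated cells, -1.01 (-1.11 to -0.91). Gzma had 6097 and 7708 CPM, 0.34 (0.28 to 0.39), and Prf1 566 and 579, 0.03 (-0.15 to 0.22). None of the 12 other NK receptors passed the fold, beside the same shares of all genes, and the widest ratio was that of Cd96, an inhibitory receptor, at 84.7 and 56.7 CPM, -0.58 (-1.10 to -0.05).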
